A study of Mus musculus with 12 samples.

Results

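The genes described here are 10 genes of salt, calcium and magnesium transport in the distal convoluted tubule and the connecting tubule of the kidney: Slc12a3, Wnk1, Wnk4, Klhl3, Stk39, Pvalb, Calb1, Trpm6, Trpv5 and Slc8a1. They were chosen by name and are 10 of the 54532 genes in the deposited count table. All 10 passed the filter on low counts that left 24642 genes for testing. RNA of whole kidneys was sequenced from 12 mice labelled C57BL/6 (C57BL/6 J in the study's methods), each 18 days old, in 4 groups of 3 separate mice. Every mouse carried the Pkd1 RC allele, a missense allele that lowers functional polycystin-1. In noncystic mice (labelled Pkd1_RC, written Pkd1 RC/+) the second Pkd1 allele was floxed but intact, because these mice had no Cre. In cystic mice (labelled Pkd1F_RC, written Pkd1 RC/-) the Ksp-Cre transgene had inactivated the floxed allele. Mice of each kind had either wildtype Pkd2 (Pkd2 +/+) or lacked, on both alleles, a miR-17 binding motif in the 3′-UTR of Pkd2, removed with CRISPR (labelled Pkd2_UTR_DD, written Pkd2 Δ17/Δ17). Ksp-Cre is driven by the promoter of the kidney cadherin gene Cdh16 and acts in tubule epithelium, above all in the distal nephron and collecting duct. The presence of Cre and the loss of Pkd1 cannot be told apart in this design, and the labels give neither the sex nor the litter of a mouse.

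The distal convoluted tubule reabsorbs sodium chloride through the thiazide-sensitive cotransporter NCC, which Slc12a3 encodes. NCC is switched on by a kinase cascade in which WNK1 and WNK4 activate SPAK, the product of Stk39, and SPAK phosphorylates NCC. KLHL3, the adaptor of a cullin-3 ubiquitin ligase, marks WNK kinases for degradation. The same segment takes up magnesium through the channel TRPM6, and its early part holds the calcium-binding protein parvalbumin. Calcium is reabsorbed in the late distal convoluted tubule and connecting tubule, where it enters through TRPV5, is carried by calbindin-D28k (Calb1) and leaves through pumps and the sodium-calcium exchanger NCX1 (Slc8a1). Mutations in SLC12A3 cause Gitelman syndrome, mutations in WNK1, WNK4 and KLHL3 cause familial hyperkalaemic hypertension, and mutations in TRPM6 cause hypomagnesaemia.

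The edited element in these mice is a match to the seed of miR-17, so the 3′-UTRs of the 10 genes were searched for the same match, the motif GCACTTT on the transcript strand. The sequence of miR-17-5p (RefSeq, GRCm38.p6, chr14:115043684-115043706, forward strand) and the stretch around each match are shown to place the matches, with the seed, bases 2 to 8, and the matching bases in capitals.
miR-17-5p: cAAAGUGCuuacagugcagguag
Klhl3: ctgttctggccgttgGCACTTTgtgaggac
Calb1: tcaggttggatttaaGCACTTTttttcaat
The Klhl3 match lies in exon 15 of 15 within the 3′-UTR (GRCm38, chr13:58003892-58003921, reverse strand), and its motif begins 1270 nucleotides into the 3′-UTR. The Calb1 match lies in exon 11 of 11 within the 3′-UTR (GRCm38, chr4:15906066-15906095, forward strand), and its motif begins 1318 nucleotides into the 3′-UTR. The longest annotated 3′-UTR held the motif in 2 of the 10 genes, against 13.6% of the 16820 tested genes with an annotated 3′-UTR. Among genes with a 3′-UTR of similar length, 36.1% held the motif for Klhl3 and 27.2% for Calb1. The motif was not among the letters of the longest 3′-UTR of the other 8 genes, which include Slc12a3, Trpm6 and Trpv5. A match is a description of sequence and was not tested as a site.

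Total counts per mouse ran from 18800307 to 24453033. Levels are given as CPM, the usual unit of counts scaled to a common library size, after correction for composition with TMM factors, which spanned 0.933 to 0.972 for the noncystic and 1.04 to 1.08 for the cystic kidneys. Pkd2, the edited gene, was at 194 to 219 CPM in noncystic Pkd2 +/+, 271 to 286 in noncystic Pkd2 Δ17/Δ17, 213 to 233 in cystic Pkd2 +/+ and 307 to 337 in cystic Pkd2 Δ17/Δ17 mice. Marker genes of other kidney cells moved between the groups. The summed level of 8 proximal tubule markers was 7403 to 9315 CPM in noncystic and 2619 to 3880 CPM in cystic Pkd2 +/+ mice, and that of 8 macrophage markers was 173 to 180.2 CPM and 422 to 549 CPM. The part of these shifts in the results below was not tested. In whole kidney, fewer cells of a type and less RNA per cell cannot be told apart.

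Levels can be compared between genes only per length of transcript. The transcripts in use are not known, so the merged exons of all annotated transcripts served as the length. These are 11.1 kb for Slc12a3, 22.8 kb for Wnk1 and 4.85 kb for Calb1. The order of the genes and the overlaps between them depend on this choice. In CPM per kilobase of merged exons, Calb1 stood at 101 ± 14.2 (SD, n = 3 mice) and Slc12a3 at 68.4 ± 16.9 (SD, n = 3) in noncystic Pkd2 +/+ kidneys, and the mice of these highest genes overlapped. Wnk4 followed at 41.0 ± 5.31 and Wnk1 at 22.5 ± 3.55 CPM per kilobase (SD, n = 3), each without overlap with the gene above it. Pvalb (15.9), Stk39 (14.2), Klhl3 (10.2) and Trpv5 (8.96) lay next in mean CPM per kilobase, and Pvalb overlapped with Wnk1 above and Stk39 below it, as Trpv5 did with Klhl3. Trpm6 at 3.64 ± 0.536 and Slc8a1 at 1.01 ± 0.321 CPM per kilobase (SD, n = 3) were the lowest, each apart from its neighbour. In cystic Pkd2 +/+ kidneys the top of the order had closed up: Calb1 (28.99), Slc12a3 (21.1), Wnk4 (20.6), Stk39 (20.4) and Trpv5 (19.4 CPM per kilobase) each overlapped with the next. Trpv5, below Klhl3 in noncystic kidneys, stood above Wnk1 (11.2) and Klhl3 (4.17) in cystic kidneys, and Pvalb, at 2.91 CPM per kilobase, had dropped below both Stk39 and Klhl3 in mean level.

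The question of whether cystic kidneys express these genes differently was answered by comparing the noncystic and cystic mice with wildtype Pkd2. Of the 10 genes, 7 fell and 2 rose in cystic kidneys, and Slc8a1 did not pass the test. Slc12a3, Pvalb and Calb1 fell most, to between 18.3 and 30.8% of their noncystic mean, while Stk39 and Trpv5 rose to 144 and 216%. A gene was called when its adjusted p was under 0.05 in the quasi-likelihood test of edgeR, adjusted by Benjamini-Hochberg over all 24642 genes. That threshold called 31.1% of all genes tested, 14.2% lower and 16.9% higher in cystic kidneys. The 3 cystic mice lay apart from the 3 noncystic mice for 9 of the 10 genes, and for 41.7% of all genes tested. The median log2 fold change of the 10 genes was -0.999, against 0.02 over all genes. With library totals in place of TMM factors, the median over all genes moved by 0.16 on the log2 scale and 71.7% of calls were higher in cystic kidneys instead of 54.4%, and the same 9 of these genes were called in the same directions.

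**Figure D1:**
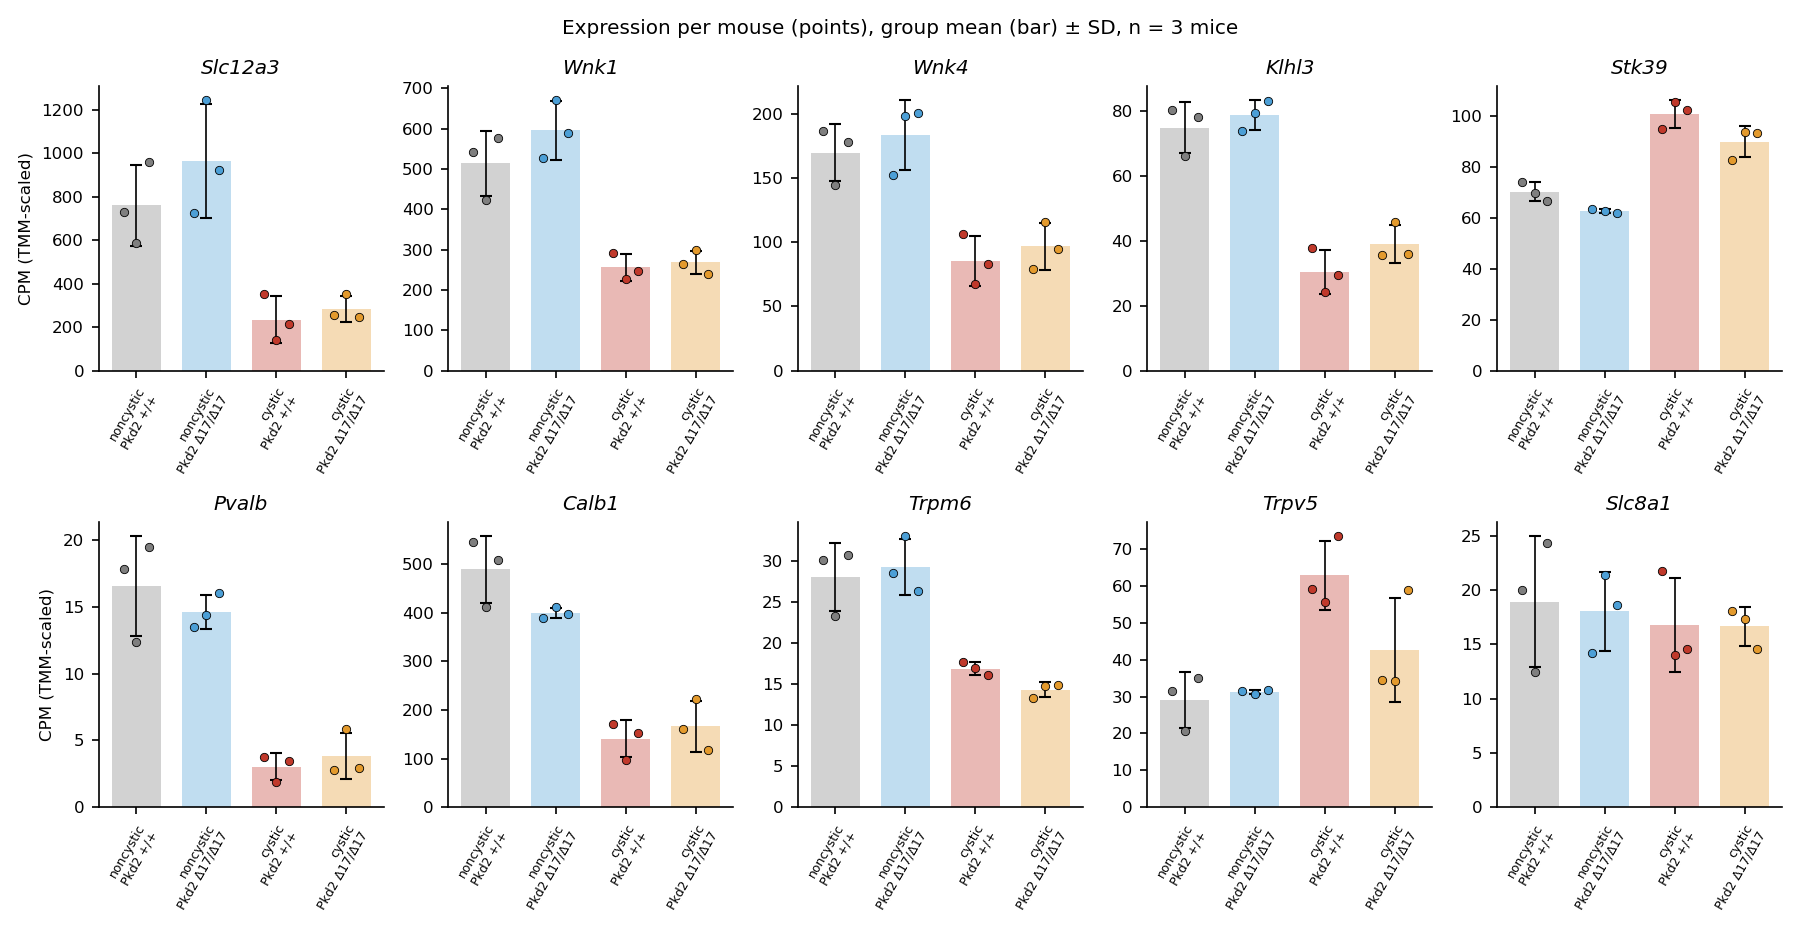
Expression of the 10 genes in CPM (vertical axis, linear from 0) in the 4 groups, with a point for each mouse, a bar for the group mean and a line for the SD (n = 3). The cystic mice sit below the noncystic mice of the same Pkd2 genotype for Slc12a3, Wnk1, Wnk4, Klhl3, Pvalb, Calb1 and Trpm6 and above them for Stk39 and Trpv5, while the 4 groups overlap for Slc8a1.

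Slc12a3 (ENSMUSG00000031766, GRCm38 chromosome 8, 94329201 to 94366214), the NCC gene, had 2829 to 22865 counts per mouse. It was at 732, 588 and 960.0 CPM in noncystic Pkd2 +/+ mice 19, 20 and 21. In cystic Pkd2 +/+ mice 25, 26 and 27 it was at 351, 138 and 214 CPM. The highest cystic mouse was well below the lowest noncystic mouse, and mouse 26 had the lowest level of all 12 mice. The log2 fold change was -1.70 (SE 0.27, adjusted p = 0.000132, edgeR's quasi-likelihood test). Among Pkd2 Δ17/Δ17 mice, Slc12a3 was at 726, 1247 and 921 CPM in noncystic mice 22, 23 and 24 and at 254, 352 and 247 CPM in cystic mice 28, 29 and 30. These groups did not overlap either, and the log2 fold change was -1.76 (SE 0.27, adjusted p = 0.000161, edgeR).

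Wnk1 (ENSMUSG00000045962, chromosome 6, 119923969 to 120038672, reverse strand) encodes the kinase at the head of the cascade. The gene also makes a kidney-specific transcript without the kinase domain, and counts per gene do not separate these transcripts. Wnk1 was at 542, 423 and 578 CPM in noncystic mice 19 to 21 and at 293, 227 and 248 CPM in cystic mice 25 to 27 with wildtype Pkd2. Every cystic mouse was below every noncystic mouse, with a log2 fold change of -1.01 (SE 0.13, adjusted p = 1.45e-05, edgeR). With Pkd2 Δ17/Δ17 it was at 527, 672 and 589 CPM in noncystic mice 22 to 24 and at 265, 299 and 241 CPM in cystic mice 28 to 30. That is a log2 fold change of -1.15 (SE 0.13, adjusted p = 9.42e-06, edgeR), again without overlap.

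Wnk4 (ENSMUSG00000035112, chromosome 11, 101260567 to 101277409), the other WNK kinase of this segment, shares 306 exon bases, 7.38% of its exons, with the antisense gene Gm11615. Because the strand setting of the counting is not given in the sources used here, reads of these bases cannot be assigned. Wnk4 was at 187, 145 and 178 CPM in noncystic mice 19 to 21 and at 106, 67.2 and 82.9 CPM in cystic mice 25 to 27 with wildtype Pkd2. Cystic mice were lower without overlap, by -0.99 on the log2 scale (SE 0.16, adjusted p = 0.000147, edgeR). Among mice with the deletion, it was at 152, 198 and 201 CPM in noncystic mice 22 to 24 and at 79.5, 116 and 95.1 CPM in cystic mice 28 to 30, a log2 fold change of -0.92 (SE 0.16, adjusted p = 0.00045, edgeR).

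Klhl3 (ENSMUSG00000014164, chromosome 13, 58000228 to 58113592, reverse strand), whose product removes WNK kinases, fell together with the kinases. It was at 80.5, 66.2 and 78.4 CPM in noncystic mice 19 to 21 and at 37.8, 24.2 and 29.6 CPM in cystic mice 25 to 27 with wildtype Pkd2. Mouse 26 was lowest of the cystic mice, as it was for Slc12a3, Wnk1 and Wnk4. The log2 fold change was -1.29 (SE 0.14, adjusted p = 2.2e-06, edgeR), the smallest adjusted p of the 10 genes in this comparison. In the Δ17/Δ17 mice, Klhl3 was at 73.9, 79.6 and 83.3 CPM in noncystic mice 22 to 24 and at 35.5, 45.9 and 35.9 CPM in cystic mice 28 to 30, a log2 fold change of -1.01 (SE 0.14, adjusted p = 4.44e-05, edgeR).

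Stk39 (ENSMUSG00000027030, chromosome 2, 68210445 to 68472268, reverse strand), the SPAK gene, went the other way. It was at 74.0, 69.9 and 66.7 CPM in noncystic mice 19 to 21 and at 94.9, 106 and 102 CPM in cystic mice 25 to 27 with wildtype Pkd2. The groups did not overlap, mice within a group were close (coefficient of variation 5.22 and 5.44%), and the log2 fold change was 0.52 (SE 0.07, adjusted p = 3.47e-05, edgeR). Among Δ17/Δ17 mice it was at 63.6, 62.7 and 62.0 CPM in noncystic mice 22 to 24 and at 82.8, 93.6 and 93.3 CPM in cystic mice 28 to 30. The rise was 0.52 on the log2 scale in this genotype too (SE 0.07, adjusted p = 7.42e-05, edgeR). SPAK is made in many cell types, and the part of other cells in the whole-kidney level of Stk39 was not tested.

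Of 13 further genes around this cascade, 8 fell, 1 rose and 4 were not called in cystic Pkd2 +/+ kidneys, with a median log2 fold change of -0.41. Of all genes tested, 14.2% were called lower and 16.9% higher in this comparison. The genes that moved most were Ppp1r1a, an inhibitor of protein phosphatase 1 found in this segment (-1.94, SE 0.10, adjusted p = 2.35e-09, edgeR), and Sgk1, the aldosterone-induced kinase (-1.17, SE 0.18, adjusted p = 6.47e-05, edgeR). Bsnd, which encodes barttin, fell by 1.13 on the log2 scale (SE 0.12, adjusted p = 2.19e-06, edgeR). The gene that rose was Nedd4l, a ubiquitin ligase of sodium transporters, at 0.70 (SE 0.15, adjusted p = 0.00179, edgeR), and it was named after its value was seen. The partners of the members that were not called included Oxsr1, the close relative of SPAK (log2 fold change 0.14, adjusted p = 0.187, edgeR), and Cul3, the cullin that KLHL3 binds (-0.10, adjusted p = 0.275, edgeR), also chosen after their values were seen.

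Pvalb (ENSMUSG00000005716, chromosome 15, 78191114 to 78206400, reverse strand), the parvalbumin gene, showed the steepest fall of the 10 genes on few reads, 39 to 383 counts per mouse. It was at 17.9, 12.4 and 19.5 CPM in noncystic mice 19 to 21 and at 3.76, 1.91 and 3.44 CPM in cystic mice 25 to 27 with wildtype Pkd2. Noncystic and cystic mice were far apart, with mouse 26 lowest, and the log2 fold change was -2.44 (SE 0.28, adjusted p = 3.96e-06, edgeR). With Pkd2 Δ17/Δ17 it was at 13.5, 14.4 and 16.01 CPM in noncystic mice 22 to 24 and at 2.74, 5.82 and 2.93 CPM in cystic mice 28 to 30, a log2 fold change of -1.93 (SE 0.27, adjusted p = 6.69e-05, edgeR). Pvalb is also a gene of fast skeletal muscle. Of 8 skeletal muscle genes, 6 passed the filter, and with wildtype Pkd2 0 were called by edgeR, DESeq2 or limma-trend. In edgeR 1 had an unadjusted p under 0.05 there, against 39.3% of all genes tested. Among Δ17/Δ17 mice DESeq2 called 1, and edgeR and limma-trend 0, where DESeq2 called 6001 of all genes. The summed level of these muscle genes was 10.8 to 12.9 CPM in noncystic and 8.10 to 8.83 CPM in cystic Pkd2 +/+ mice. Their part in the fall of Pvalb was not tested.

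Calb1 (ENSMUSG00000028222, chromosome 4, 15881264 to 15908064) encodes calbindin-D28k, the calcium carrier of the late distal convoluted and connecting tubule. It was at 546, 413 and 510 CPM in noncystic mice 19 to 21 and at 171, 97.4 and 153 CPM in cystic mice 25 to 27 with wildtype Pkd2. Every cystic mouse was below every noncystic mouse, and the log2 fold change was -1.80 (SE 0.20, adjusted p = 3.94e-06, edgeR). Among mice with the deletion, it was at 390.4, 412 and 398 CPM in noncystic mice 22 to 24 and at 160.3, 222 and 117 CPM in cystic mice 28 to 30, a log2 fold change of -1.27 (SE 0.20, adjusted p = 0.000199, edgeR).

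Trpm6 (ENSMUSG00000024727, chromosome 19, 18749983 to 18892511), the magnesium channel, fell less than the other 6 genes that fell with wildtype Pkd2. It was at 30.2, 23.3 and 30.8 CPM in noncystic mice 19 to 21 and at 17.7, 16.9 and 16.1 CPM in cystic mice 25 to 27. The cystic mice lay close together and below all noncystic mice, with a log2 fold change of -0.73 (SE 0.12, adjusted p = 0.000145, edgeR). In the Δ17/Δ17 mice it was at 28.6, 33.1 and 26.4 CPM in noncystic mice 22 to 24 and at 13.3, 14.8 and 14.9 CPM in cystic mice 28 to 30. The log2 fold change there was -1.03 (SE 0.12, adjusted p = 1.34e-05, edgeR). The interaction, the difference between these changes, was -0.30 (95% interval -0.66 to 0.06, adjusted p = 0.691, edgeR).

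Among 10 further genes of magnesium handling, 5 fell, 2 rose and 3 were not called in cystic Pkd2 +/+ kidneys, with a median log2 fold change of -0.39. The shares over all genes tested were 14.2% lower and 16.9% higher. Egf, a growth factor of the thick ascending limb and distal convoluted tubule that activates TRPM6, fell by 3.07 on the log2 scale, from 1598 to 1860.4 CPM in noncystic to 167 to 267 CPM in cystic mice (SE 0.16, adjusted p = 4.76e-09, edgeR). Fxyd2, the gamma subunit of the sodium pump, fell by 1.35 (SE 0.10, adjusted p = 9.3e-08, edgeR), and Pcbd1, a transcriptional cofactor, fell by 1.02 (SE 0.09, adjusted p = 3.89e-07, edgeR). Slc41a1, a magnesium transporter, rose by 0.58 on the log2 scale (SE 0.10, adjusted p = 0.000226, edgeR). Without mouse 26, or with library totals, 3 genes of this list instead of 5 were called lower.

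Trpv5 (ENSMUSG00000036899, chromosome 6, 41652173 to 41680769, reverse strand), the apical calcium channel, rose while Calb1, which takes up its calcium, fell. It was at 31.6, 20.6 and 34.998 CPM in noncystic mice 19 to 21 and at 59.3, 55.8 and 73.6 CPM in cystic mice 25 to 27 with wildtype Pkd2. The groups did not overlap, and the log2 fold change was 1.11 (SE 0.20, adjusted p = 0.000317, edgeR). Among Δ17/Δ17 mice it was at 31.6, 30.7 and 31.7 CPM in noncystic mice 22 to 24 and at 34.5, 34.3 and 59.0 CPM in cystic mice 28 to 30. Cystic mice 28 and 29 were just above the noncystic mice and mouse 30 was in the range of the cystic Pkd2 +/+ mice, so that the log2 fold change of 0.44 (95% interval 0.03 to 0.86) was not called (adjusted p = 0.127, edgeR). It was called with library totals (0.60 on the log2 scale, adjusted p = 0.0377, edgeR) and without the filter on low counts (0.44, adjusted p = 0.000248, edgeR). In the fit without the filter a gene's own mice did not set its spread, as described below. With a mouse left out the value was 0.14 to 0.58 and was not called (adjusted p 0.0675 to 0.66, edgeR).

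Slc8a1 (ENSMUSG00000054640, chromosome 17, 81373105 to 81738377, reverse strand), the basolateral exchanger NCX1, was the member whose level was not called in any comparison. It was at 19.99, 12.4 and 24.4 CPM in noncystic mice 19 to 21 and at 21.8, 14.0 and 14.5 CPM in cystic mice 25 to 27 with wildtype Pkd2. The groups overlapped widely, and the log2 fold change was -0.17 (95% interval -0.63 to 0.29, adjusted p = 0.609, edgeR). With Pkd2 Δ17/Δ17 it was at 14.2, 21.4 and 18.6 CPM in noncystic mice 22 to 24 and at 18.0, 17.3 and 14.6 CPM in cystic mice 28 to 30, a log2 fold change of -0.12 (95% interval -0.58 to 0.35, adjusted p = 0.772, edgeR). Slc8a1 shares 296 exon bases with the antisense gene AC122399.1 and 8 with Gm11096, and it is also made in heart, smooth muscle and nerve. The summed level of 5 smooth muscle genes was 148 to 232 CPM in noncystic and 354 to 672 CPM in cystic Pkd2 +/+ mice, and its part in the level of Slc8a1 was not tested.

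Among 9 further genes of calcium handling, 5 fell, 1 rose and 3 were not called in cystic Pkd2 +/+ kidneys, with a median log2 fold change of -0.82. Over all genes tested, 14.2% were called lower and 16.9% higher. The gene that rose was Trpv6, the paralog of Trpv5, which lies 15.8 kb from it on chromosome 6. Trpv6 was at 5.61 to 6.41 CPM in noncystic and at 51.0 to 58.7 CPM in cystic mice, a log2 fold change of 3.17 (SE 0.20, adjusted p = 1.74e-08, edgeR). The longest identical stretch between Trpv5 and Trpv6 transcripts was 47 bases. Klk1, the kallikrein of the connecting tubule, fell by 2.62 (SE 0.15, adjusted p = 5.4e-09, edgeR), and S100g, the small calbindin, fell by 2.17 on the log2 scale (SE 0.17, adjusted p = 8.6e-08, edgeR). Pth1r, the parathyroid hormone receptor, which the proximal tubule also makes, fell by 1.15 (SE 0.11, adjusted p = 5.55e-07, edgeR).

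In mice with Pkd2 Δ17/Δ17, 8 of the 10 genes were called between cystic and noncystic kidneys, 7 lower and 1 higher. Of all genes tested, 23% were called, 10.2% lower and 12.8% higher. The cystic and noncystic mice lay apart for 9 of the 10 genes and for 37.9% of all genes tested. The genes called lower were the same 7 as with wildtype Pkd2, Stk39 was the gene called higher, and Trpv5 and Slc8a1 were not called. The median log2 fold change of the 10 genes was -1.02 here. These mice are not those of the comparison with wildtype Pkd2, and library totals moved the median over all genes by 0.15 on the log2 scale and the share of calls that were higher from 55.7 to 76.3%.

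**Figure D2:**
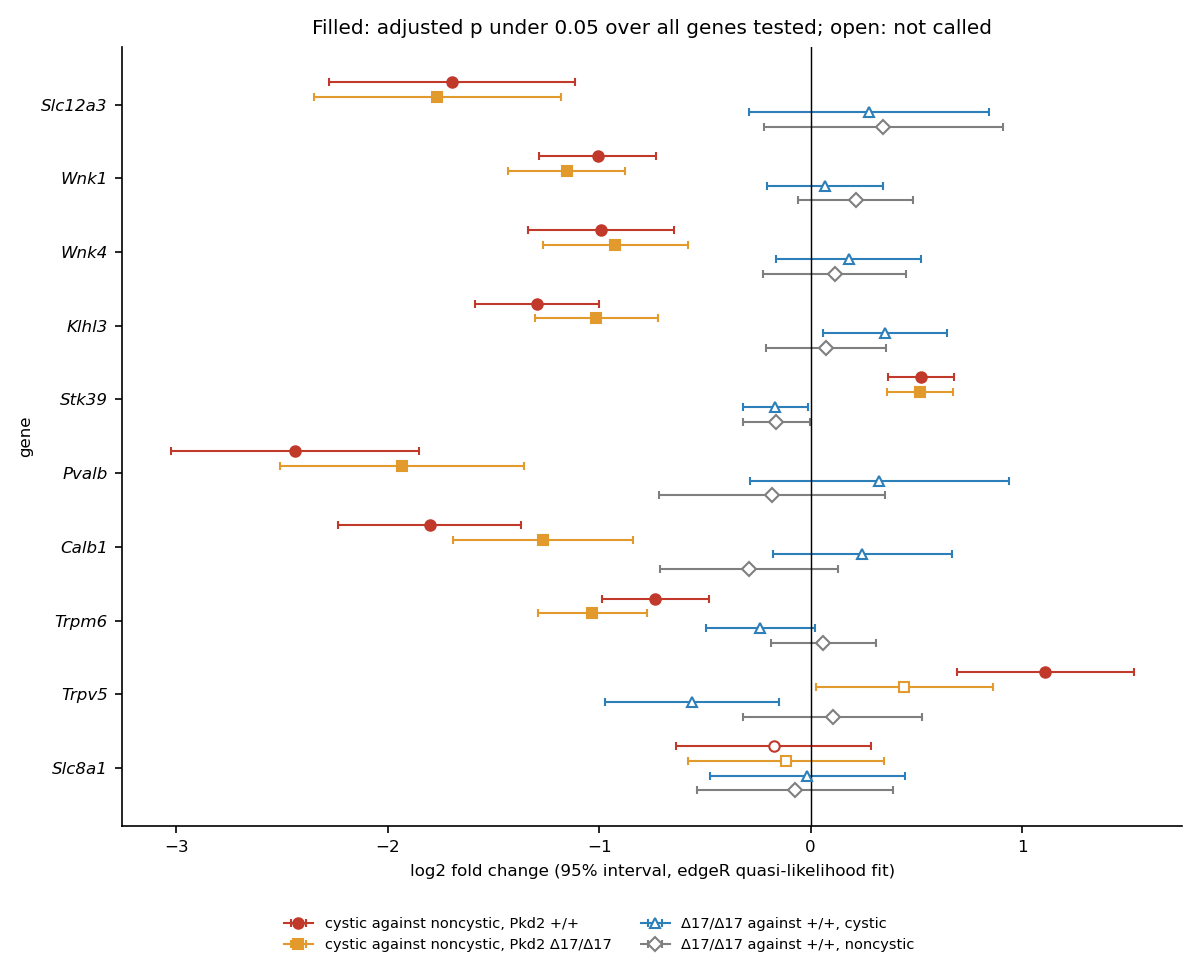
Log2 fold changes of the 10 genes (horizontal axis) with 95% intervals in 4 comparisons, filled where the gene was called over all genes tested and open where it was not. The changes between cystic and noncystic kidneys lie away from 0 for all genes but Slc8a1, with Pkd2 +/+ from -2.44 for Pvalb to 1.11 for Trpv5. With Pkd2 Δ17/Δ17, Trpv5 was not called, at 0.44 (95% interval 0.03 to 0.86). For the Pkd2 motif deletion, 0 of the 10 genes were called.

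Whether the Pkd2 motif deletion shifts these genes was asked in cystic and in noncystic kidneys. In cystic kidneys, 0 of the 10 genes were called by edgeR between Pkd2 Δ17/Δ17 and Pkd2 +/+ mice, where 2.23% of all genes were called. An unadjusted p under 0.05 was found for 3 of the 10 and for 14.3% of all genes tested. DESeq2's Wald test and limma-trend also called 0 of the 10. The smallest adjusted p was that of Trpv5, which was lower with the deletion by -0.56 on the log2 scale (95% interval -0.97 to -0.15, adjusted p = 0.164, edgeR). Trpv5 was at 34.5, 34.3 and 59.0 CPM with the deletion and at 59.3, 55.8 and 73.6 CPM without it, and mouse 30 alone overlapped the other group. Without mouse 30 the difference was -0.87 on the log2 scale with an adjusted p of 0.011 (edgeR). That fit left out the mouse that overlapped, so a larger difference follows from the choice of mouse. Over all fits with a mouse left out, the difference was -0.87 to -0.43 (adjusted p 0.011 to 0.497, edgeR).

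Klhl3 was higher with the deletion by 0.35 on the log2 scale (95% interval 0.06 to 0.65, adjusted p = 0.236, edgeR). Mouse 25 of the Pkd2 +/+ group, at 37.8 CPM, lay above mice 28 and 30 of the Δ17/Δ17 group, at 35.5 and 35.9 CPM. Without mouse 25, again the mouse that overlapped, the difference was 0.54 with an adjusted p of 0.0243 (edgeR). Over all fits with a mouse left out, it was 0.21 to 0.54 (adjusted p 0.0243 to 0.621, edgeR). Stk39 was lower by -0.17 on the log2 scale (95% interval -0.32 to -0.01, adjusted p = 0.302, edgeR), and Trpm6 by -0.24 (95% interval -0.50 to 0.02, adjusted p = 0.401, edgeR). The Δ17/Δ17 mice did not overlap the Pkd2 +/+ mice for these 2 genes, as for 19% of all genes tested. Slc12a3 differed by 0.28 (95% interval -0.29 to 0.84), Pvalb by 0.32 (95% interval -0.29 to 0.94) and Calb1 by 0.24 on the log2 scale (95% interval -0.18 to 0.67), so that changes of either direction lie within the error for these genes. The median log2 difference of the 10 genes was 0.12, against 0.00075 over all genes.

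Without the filter on low counts, edgeR called Klhl3 (adjusted p = 0.0112) and Trpv5 (adjusted p = 3.89e-06) between the cystic groups. In that fit the estimated prior degrees of freedom were infinite, so that all genes shared the fitted trend of the spread and a gene's own mice did not set it.

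In noncystic kidneys, 0 of the 10 genes were called by edgeR for the deletion, where 0.00406% of all genes were called. An unadjusted p under 0.05 was found for 1 of the 10, Stk39, and for 6.31% of all genes tested. DESeq2's Wald test and limma-trend called 0 as well. Stk39 was lower in all Δ17/Δ17 mice, by -0.16 on the log2 scale (95% interval -0.32 to -0.0043, adjusted p = 0.771, edgeR). Calb1 was also lower without overlap, by -0.29 (95% interval -0.71 to 0.13, adjusted p = 0.801, edgeR), and 10.8% of all genes tested had groups without overlap. The interaction of cystic disease and deletion called 0 of the 10 genes by edgeR, where 0.0122% of all genes were called. An unadjusted p under 0.05 was found for 8.33% of all genes tested and for 1 of the 10. That gene was Trpv5, with an interaction of -0.67 (95% interval -1.26 to -0.08, adjusted p = 0.534, edgeR). The deletion in cystic kidneys and the comparison of cystic with noncystic kidneys share the cystic Pkd2 +/+ mice, so their values are given side by side and were not set against each other.

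Within the Pkd2 +/+ groups the mice ranked much alike over these genes, and less so within the Δ17/Δ17 groups. How usual such ranks are over all genes was not tested. Mouse 20 had the lowest level of the noncystic Pkd2 +/+ mice for 9 of the 10 genes, with Stk39 the exception. Among cystic Pkd2 +/+ mice, mouse 25 was highest for 8 genes and mouse 26 lowest for 8, while Stk39 was lowest in mouse 25 and highest in mouse 26. Among cystic Δ17/Δ17 mice, mouse 29 was highest for 7 genes, Stk39 among them, while mouse 28 was lowest for 5 and mouse 30 for 4. Among noncystic Δ17/Δ17 mice, mouse 22 was lowest for 7 genes, while mouse 23 was highest for 5 and mouse 24 for 4. Mouse 20 had the smallest library (18800307 counts) and mouse 25 the largest (24453033), and the part of depth in this order was not tested.

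**Figure D3:**
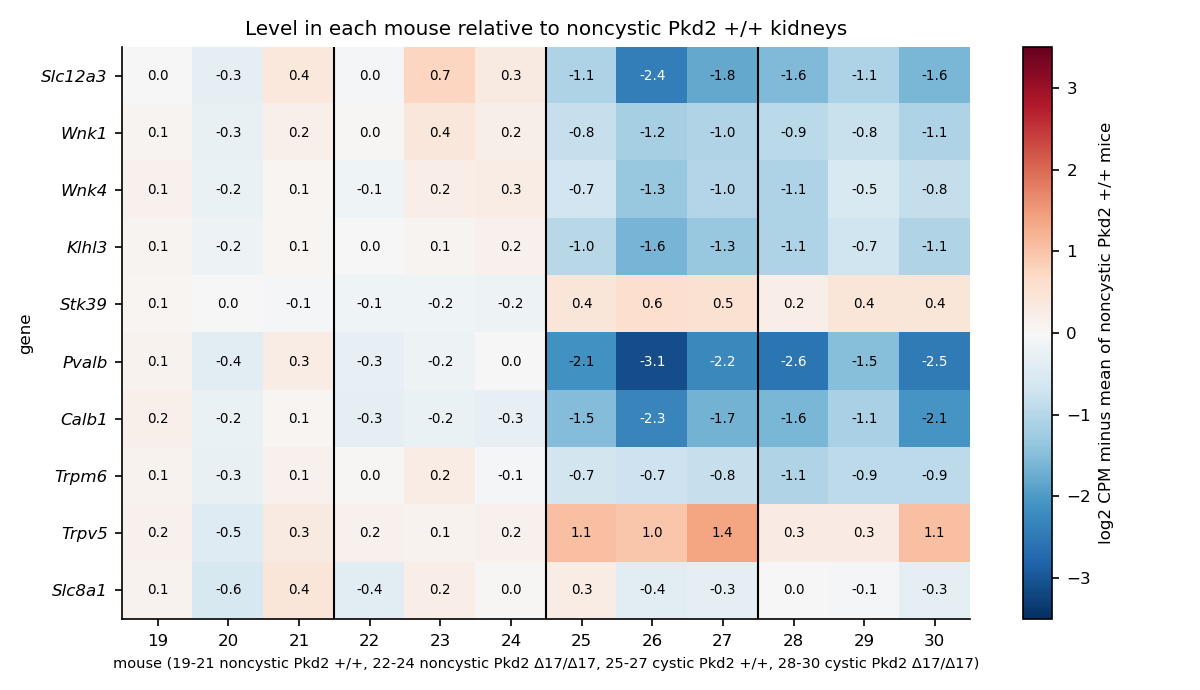
Log2 CPM of each gene (rows) in each of the 12 mice (columns), minus the mean of the noncystic Pkd2 +/+ mice, with the value printed in each cell. Columns 25 to 30 are the cystic mice, where Slc12a3, Pvalb and Calb1 are darkest blue, with mouse 26 lowest for these genes, and Stk39 and Trpv5 are red.

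If the 10 genes fell only by a common factor, their ratios within a mouse would be alike in cystic and noncystic kidneys. The rises of Stk39 and Trpv5 already depart from a common factor, so the ratios describe which genes moved with Slc12a3. The ratio of each of the other 9 genes to Slc12a3 was therefore compared between the 6 cystic and the 6 noncystic mice with a two-sided exact permutation test, and p-values were adjusted over these 9 ratios, which share Slc12a3 as their denominator. In 6 against 6 mice the smallest p this test can give is 0.00216. The ratio passed the threshold for 8 of the 9 genes. Slc12a3 was among the genes that fell most, so this count largely follows from the fold changes already given. For Trpv5 and Stk39, which were higher in cystic mice of either Pkd2 genotype without overlap while Slc12a3 was lower, a separation of the ratios follows from the levels already given, so their differences of 2.53 and 2.28 on the log2 scale are a description. The ratio of Slc8a1 was higher in cystic mice without overlap, by 1.63 on the log2 scale (exact permutation p = 0.00216, adjusted p = 0.00325). This too largely follows from the levels given, since Slc8a1 was not called while Slc12a3 fell. The ratios of Trpm6 (0.88), Wnk4 (0.79) and Wnk1 (0.68) were also higher without overlap (exact permutation p = 0.00216, adjusted p = 0.00325 for each), and that of Klhl3 was higher by 0.59 with overlap (exact permutation p = 0.00649, adjusted p = 0.00835). These values too largely restate the fold changes given, since each of these genes fell less than Slc12a3 in either Pkd2 genotype.

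Calb1 kept its ratio to Slc12a3 within the error, with a difference of 0.19 on the log2 scale (exact permutation p = 0.39, adjusted p = 0.39). Pvalb was lower relative to Slc12a3, by -0.48 (exact permutation p = 0.0303, adjusted p = 0.0341), and this call was lost when any of mice 19, 20, 21, 25, 28 or 30 was left out (adjusted p 0.0633 to 0.0682, exact permutation test). These directions depend on the denominator. Relative to the geometric mean of the other 9 of the 10 genes, the differences turned negative for Wnk1 (-0.25, adjusted p = 0.00835), Klhl3 (-0.35, adjusted p = 0.00649) and Calb1 (-0.80, adjusted p = 0.0039, all exact permutation tests). The calls of Wnk4 (-0.13, adjusted p = 0.11) and Trpm6 (-0.027, adjusted p = 0.829, both exact permutation tests) were lost. With 3 against 3 mice the exact test cannot go below 0.1, so it was not used within a Pkd2 genotype. The differences within the genotypes were 2.29 with Pkd2 +/+ and 2.26 with Pkd2 Δ17/Δ17 for Stk39, and 0.77 and 0.60 for Wnk1. For Pvalb they were -0.70 and -0.26, and for Calb1 -0.06 and 0.43.

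**Figure D4:**
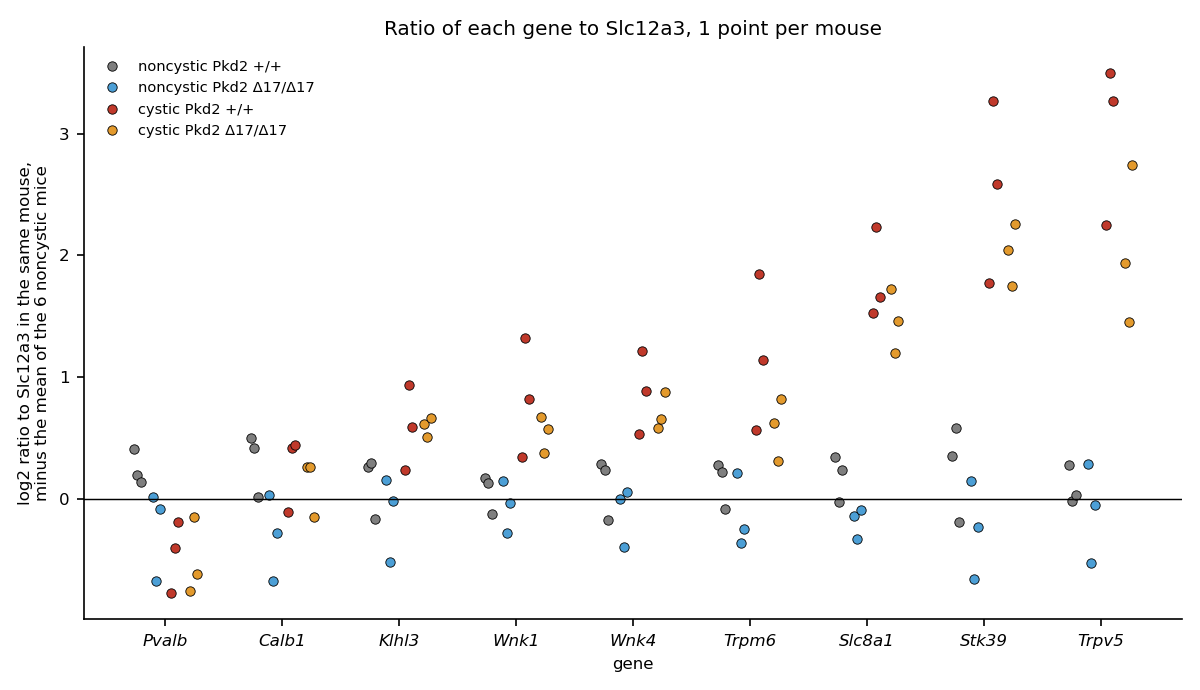
Log2 ratio of each gene to Slc12a3 in the same mouse, minus the mean of the 6 noncystic mice (vertical axis), with a point for each of the 12 mice. The 6 cystic mice lie above the 6 noncystic mice for Wnk1, Wnk4, Trpm6, Slc8a1, Stk39 and Trpv5, and overlap with them for Pvalb, Calb1 and Klhl3.

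Downstream of the distal convoluted tubule, sodium enters through the epithelial channel ENaC under aldosterone. Of 7 genes of this aldosterone-sensitive step, 4 rose and 1 fell in cystic Pkd2 +/+ kidneys, where 16.9% of all genes tested rose and 14.2% fell. Hsd11b2, the enzyme that protects the mineralocorticoid receptor from glucocorticoids, rose by 1.75 on the log2 scale (SE 0.14, adjusted p = 1.5e-07, edgeR). The ENaC subunit genes rose together, Scnn1g by 1.30 (SE 0.14, adjusted p = 2.64e-06), Scnn1b by 1.26 (SE 0.13, adjusted p = 1.62e-06) and Scnn1a by 0.81 (SE 0.10, adjusted p = 1.26e-05, all edgeR). The gene that fell, Kcnj1, the potassium channel ROMK, was at -0.34 (adjusted p = 0.0406, edgeR) and was outside the naming rule, and lost its call with library totals, with limma-trend and without mouse 19, 21, 24, 26 or 27. Of 5 principal cell markers, Fxyd4 was the gene called, and the summed level of the list was 831 to 987 CPM in noncystic and 788 to 2196 CPM in cystic Pkd2 +/+ mice. The part of the number of principal cells in the ENaC result was not tested.

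Of 7 transcription factors of the distal nephron, 6 fell and 0 rose in cystic Pkd2 +/+ kidneys, with a median log2 fold change of -0.78. In this comparison 14.2% of all genes tested fell and 16.9% rose. In edgeR 6 of the 7 had an unadjusted p under 0.05, against 39.3% of all genes tested. DESeq2 and limma-trend called 6 each. Emx1 fell by 1.55 (SE 0.17, adjusted p = 2.48e-06, edgeR), Sall3 by 1.41 (SE 0.24, adjusted p = 0.000258, edgeR), Esrrb by 1.09 (SE 0.12, adjusted p = 2.07e-06, edgeR) and Irx2 by 0.78 on the log2 scale (SE 0.12, adjusted p = 5.74e-05, edgeR). Emx1 was also the gene whose pattern was most like that of Calb1. Markers of the thick ascending limb, the segment before, did not all move one way: 3 fell and 2 rose of 6, and Umod, the uromodulin gene, was at -0.10 (adjusted p = 0.689, edgeR), chosen after its value was seen.

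**Figure D5:**
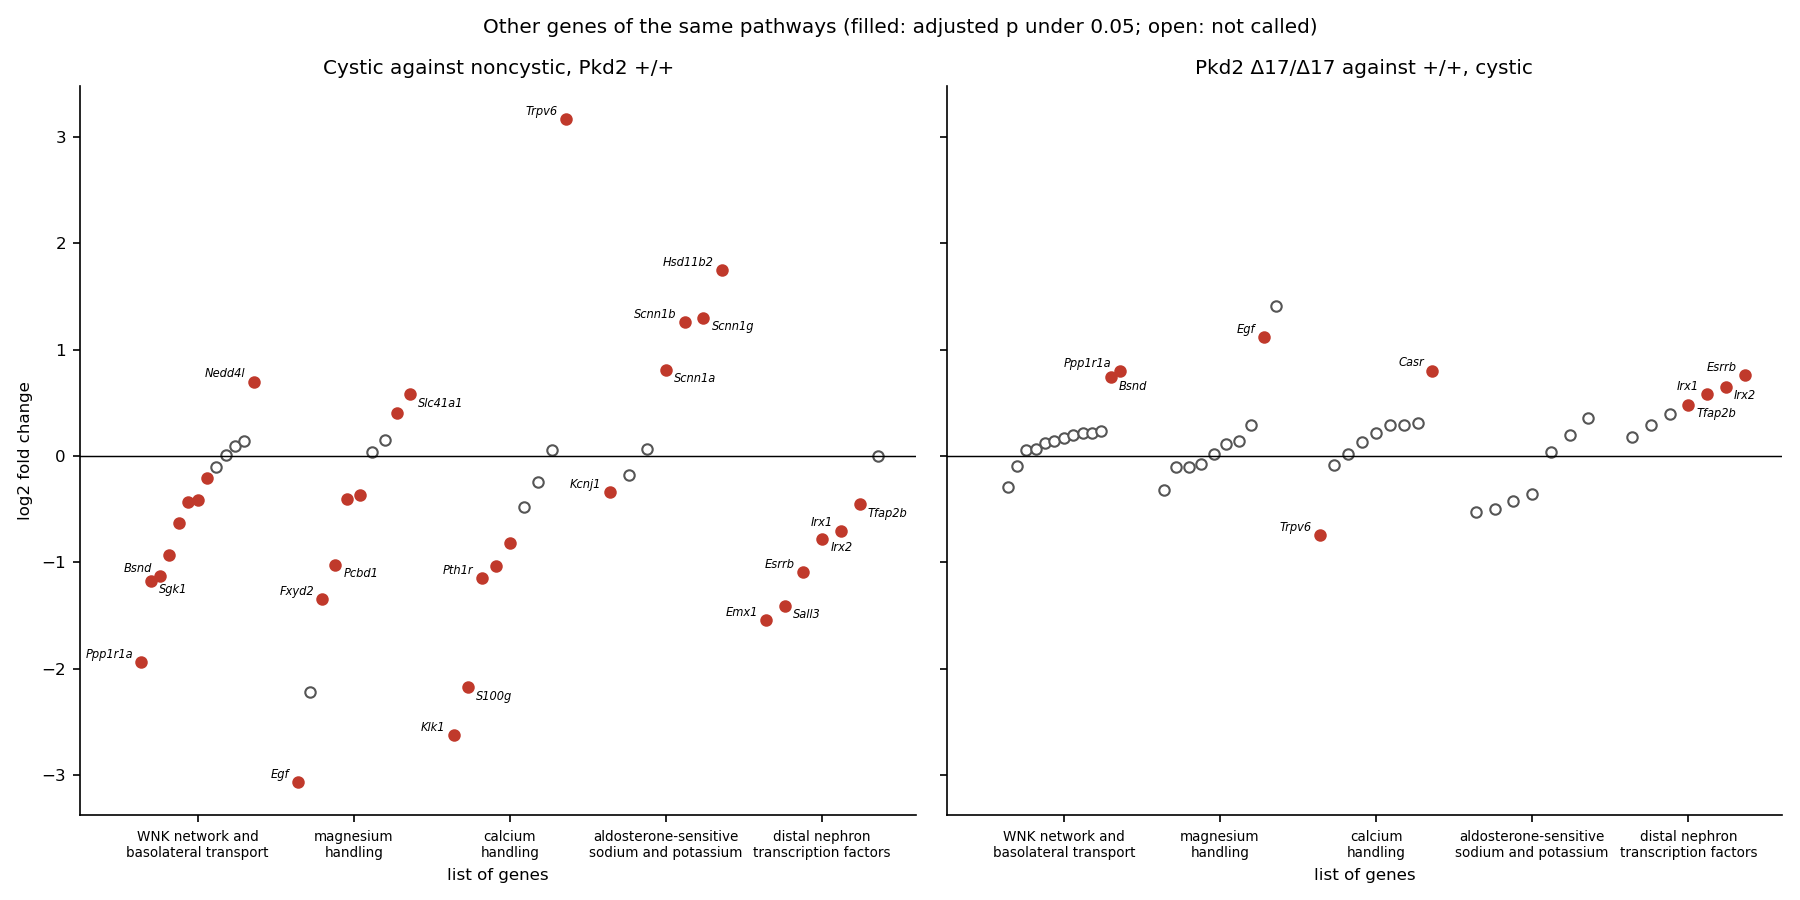
Log2 fold changes of the other genes of the same pathways (vertical axis) by list, in cystic against noncystic Pkd2 +/+ kidneys (left) and for the Pkd2 motif deletion in cystic kidneys (right). Filled points were called, with the genes given in the text named, and open points were not. On the left Trpv6 (3.17) and Egf (-3.07) mark the ends, the ENaC genes lie above 0 and the distal transcription factors lie below it or, for 1 gene, on it.

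Some of these neighbouring genes were called for the deletion in cystic kidneys, where 2.23% of all genes tested and 0 of the 10 members were called. Whether members and neighbouring genes differ in their response to the deletion was not tested. Of the 13 genes around the NCC cascade, 2 rose, Ppp1r1a by 0.80 (SE 0.09, adjusted p = 0.000704, edgeR) and Bsnd by 0.74 (SE 0.12, adjusted p = 0.00481, edgeR). Egf rose by 1.12 on the log2 scale (SE 0.15, adjusted p = 0.0018, edgeR), the 1 call of the magnesium list. In the calcium list Casr, the calcium-sensing receptor, rose by 0.80 (adjusted p = 0.0384) and Trpv6 fell by 0.75 on the log2 scale (adjusted p = 0.0342, both edgeR). Trpv6 lost its call without mouse 26, 27, 28 or 29 (adjusted p 0.0561 to 0.165, edgeR), and Casr without mouse 19, 24, 26, 27, 28 or 29 (adjusted p 0.0522 to 0.219, edgeR). Of the transcription factors 4 rose, Esrrb (0.76, adjusted p = 0.0032), Irx2 (0.65, adjusted p = 0.00851), Irx1 (0.58, adjusted p = 0.0044) and Tfap2b (0.48, adjusted p = 0.0211, all edgeR). Without mouse 27, Irx2 (adjusted p = 0.0578) and Tfap2b (adjusted p = 0.0938, both edgeR) lost their calls, and Tfap2b also did without mouse 26 (adjusted p = 0.0599) or 29 (adjusted p = 0.112, both edgeR). Fitting the compared groups alone also ended the calls of Trpv6 (adjusted p = 0.131), Casr (0.0587) and Tfap2b (0.0763, all edgeR). Markers of other kidney cells moved in the same comparison. Of 6 thick ascending limb genes 3 rose, Slc12a1 by 0.93 (adjusted p = 0.000704), Cldn10 by 0.70 (adjusted p = 0.00216) and Ptger3 by 0.65 on the log2 scale (adjusted p = 0.00393, all edgeR), and the summed level of the list was 1670 to 2369 CPM in Pkd2 +/+ and 3242 to 3318 CPM in Δ17/Δ17 cystic mice. Of 8 proximal tubule genes 3 rose (summed level 2619 to 3880 against 3626 to 4989 CPM), and of 8 macrophage genes 3 fell (422 to 549 against 296 to 397 CPM). Both counts were 0 without mouse 27, 28 or 29. The part of these shifts in the calls for the deletion was not tested. Of the aldosterone list 0 of 7 were called by edgeR and by limma-trend and 3 by DESeq2. In edgeR 4 of the 7 had an unadjusted p under 0.05, against 14.3% of all genes tested. In noncystic kidneys edgeR, DESeq2 and limma-trend called 0 genes of these 5 lists for the deletion. An unadjusted p under 0.05 in edgeR was found for 1 gene of the magnesium list, 2 of the calcium list and 6.31% of all genes tested.

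Patterns over the 12 mice were also compared with those of all genes of an average log2 CPM of at least 1 (13691 genes), by the root mean square difference of log2 CPM after centring each gene. The gene nearest to Slc12a3 was Aspdh (0.206 on the log2 scale), followed by Cyp4a31 (0.225) and Cyp4a14 (0.252), where Slc12a3 itself deviated from its mean by 0.969. Nearest to Pvalb were Dnase1 (0.243), Gm44120 (0.293) and Slc2a9 (0.301), and nearest to Calb1 were Emx1 (0.166), Hhatl (0.168) and Tmem52b (0.181). Nearest to Trpm6 were Tns2 (0.115), Nr1h3 (0.14) and Pex11a (0.14). Nearest to Trpv5 were Csf2ra (0.19), Socs2 (0.211) and Cd68 (0.211), the last of which is a macrophage marker. These are descriptions of likeness over 12 mice that share 1 main difference, that between cystic and noncystic kidneys.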

How the data were processed

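RNA of whole kidneys from 12 mice was sequenced and counted per gene. Per the labels and the methods of the study, the authors trimmed paired reads with Trim Galore 0.6.3, aligned them to GRCm38 with STAR 2.5.3a and counted reads per Ensembl gene with STAR, which counts uniquely mapped reads. The deposited counts are whole numbers for 54532 genes, with no normalization. The strand column of the counting is not given in the sources used here. Total counts were 18800307 to 24453033 per mouse, which sets the counting error of low genes such as Pvalb (39 to 383 counts). Columns were assigned to mice, and mice to groups, by the labels.

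The study's cutoff was used, and genes whose mean log2CPM (prior count 2) reached -3 were tested. The main test was edgeR 4.0.16 in R 4.3.3, a quasi-likelihood fit with TMM factors of the 4 group means (12 mice, leaving 8 residual degrees of freedom), adjusted by Benjamini-Hochberg over 24642 genes, with a threshold of 0.05. Intervals are 95% intervals of the fitted log2 fold change. CPM per kilobase used the merged exons of GENCODE M21 (GRCm38), which held 54409 (99.77%) of the identifiers and gave coordinates and 3′-UTRs. Ratios within a mouse used counts plus 0.5 and exact permutation tests (SciPy 1.17.1).

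The alternatives were library totals, DESeq2's size factors, DESeq2 1.42.0, limma-trend (limma 3.58.1, prior count 3, the method of the study), no filter, a minimum of 10 counts in each mouse, the filterByExpr function, Xist as a covariate, the compared groups only, an adjusted p under 0.01 and leaving out each mouse, and, for the ratios, an added count of 2 and the geometric mean of the other 9 genes as denominator. Running them for the further gene lists was decided after seeing the data.

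The 10 genes and all lists were chosen with earlier results of these data known. All 10 genes were named. Of each further list, counts were given and up to 4 genes named, those with the largest log2 fold change among called genes without overlap, and genes outside this rule are marked in the text. The result of 1 gene that the rule would name is not reported here. The edgeR and limma-trend fits were run on simulated data before use. Marker lists gave these counts in cystic against noncystic Pkd2 +/+ kidneys: of 8 proximal tubule genes 8 fell, of 5 podocyte genes 4 fell and 1 rose, of 5 endothelial genes 3 fell, of 6 fibroblast genes 3 rose and 1 fell, of 5 smooth muscle genes 3 rose, and of 8 macrophage genes 8 rose. Over all genes tested 14.2% fell and 16.9% rose.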

Additional observations from a re-analysis of the deposited data

How the results depend on the processing

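Between cystic and noncystic Pkd2 +/+ kidneys, 9 of the 10 genes were called under all 22 alternatives, with the same genes in the same direction, and with Pkd2 Δ17/Δ17 the count was 8 to 9. Over all genes, calls between cystic and noncystic Pkd2 +/+ kidneys numbered 7665, and 5473 to 8829 under these alternatives. For the deletion in cystic kidneys 2 genes were called without the filter on low counts, and 0 to 1 when a mouse was left out. For the interaction 2 were called without the filter, Calb1 (0.53, adjusted p = 0.00872, edgeR) and Trpv5 (-0.67, adjusted p = 0.000911, edgeR), and 0 when a mouse was left out. In noncystic kidneys 0 were called by edgeR, DESeq2 or limma-trend under every alternative run (1 at an unadjusted p under 0.05 in edgeR, against 6.31% of all genes tested). Over all genes, calls for the deletion in cystic kidneys numbered 549, 1128 with DESeq2, 1639 without the filter, 167 with the compared groups alone, 119 at an adjusted p under 0.01 and 118 to 861 with a mouse left out. For the deletion in noncystic kidneys there was 1 call, and 3 with DESeq2, 124 without the filter, 2 with the compared groups alone and 0 to 2 with a mouse left out. For the interaction there were 3 calls, and 134 with DESeq2, 566 without the filter, 8 with library totals, 9 with limma-trend, 12 with at least 10 counts per mouse, 15 with Xist as a covariate, 0 with filterByExpr or at an adjusted p under 0.01, and 0 to 61 with a mouse left out. Between cystic and noncystic Pkd2 Δ17/Δ17 kidneys there were 5679 calls and 3761 at an adjusted p under 0.01. Slc8a1, which was not called in any comparison, changed sign: between cystic and noncystic kidneys it was 0.0082 with limma-trend and -0.43 to 0.033 with a mouse left out (Pkd2 +/+), and 0.030 with library totals, 0.049 with limma-trend and -0.27 to 0.0039 with a mouse left out (Pkd2 Δ17/Δ17). For the deletion in cystic kidneys it was 0.018 with limma-trend and 0.041 with Xist as a covariate, and with a mouse left out -0.13 to 0.22. Other uncalled values changed sign with a mouse left out. In cystic kidneys the deletion gave Wnk1 -0.016 to 0.18, Pvalb -0.11 to 0.52 and Calb1 -0.019 to 0.44. In noncystic kidneys it gave Klhl3 -0.019 to 0.13, Trpm6 -0.065 to 0.13, Trpv5 -0.10 to 0.26 and Slc8a1 -0.31 to 0.15. The interaction gave Slc12a3 -0.34 to 0.34 (0.017 with limma-trend), Wnk4 -0.084 to 0.25, Stk39 -0.047 to 0.052 and Slc8a1 -0.16 to 0.30. The number of ratios to Slc12a3 past the threshold was 7 to 8 with a mouse left out. With the geometric mean of the other 9 genes as denominator, the differences in ratio of Wnk1 (-0.25), Wnk4 (-0.13), Klhl3 (-0.35), Calb1 (-0.80) and Trpm6 (-0.027) were negative, and 7 ratios passed the threshold. Where no cause is named, the cause was not tested. No paired analysis was possible because the mouse numbers in the labels differ between all groups. Depth limits Pvalb most, and 3 mice a group limit what can be said of the deletion, whose intervals include changes of either sign for 7 of the 10 genes in cystic kidneys.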
